A study of Mus musculus with 12 samples.

Results

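The 10 transcripts described here belong to the immediate early genes: Fos, Fosb, Jun, Junb, Jund, Atf3, Egr1, Nr4a1, Dusp1 and Zfp36. They were chosen by name, as the rows of the deposited table whose Ensembl identifiers carry these symbols in the GENCODE M21 mouse annotation. All 10 were found among 23438 listed genes, and all 10 were among the 11152 genes kept for testing because 5 or more libraries had 1 TPM or above. Messenger RNA was sequenced from macrophages grown from bone marrow and collected at day 7 (bone marrow derived macrophages, BMDMs), taken from C57 mice with atherosclerosis. The groups were 7 wild-type (WT) libraries and 5 libraries of Baf60a knockout (KO) macrophages, 12 in all, and both genotypes shared the atherosclerotic background. Baf60a is the product of Smarcd1, a subunit of the SWI/SNF chromatin remodelling complex. The labels used here gave neither the cells in which the gene was deleted nor the way the mice were made atherosclerotic, and no label said whether libraries came from separate mice. The p-values thus rest on how much libraries of a genotype vary, and that variation can be technical.

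Immediate early genes are transcribed within minutes of a stimulus, without the need for new protein synthesis, and most of their messenger RNAs are short lived. AP-1 is a dimer of basic leucine zipper proteins: Jun proteins pair with each other, with Fos proteins or with members of the ATF family, while Fos proteins need a partner such as a Jun protein. In macrophages these genes respond to microbial products, growth factors and cell stress through the MAP kinases. Dusp1 and Zfp36 belong to the brakes of that response: the product of Dusp1 removes phosphate from MAP kinases, and that of Zfp36, tristetraprolin, binds AU-rich messages and speeds their decay.

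Values are TPM, the share of transcripts that a gene takes in a library after correction for its length, so levels can be set side by side between genes. Library sums over the table were 940127 to 947987 TPM. Smarcd1 was examined before the other genes, and its 5 KO values (5.99 to 7.58 TPM) were below its 7 WT values (11.6 to 15.6 TPM; limma adjusted p of 7.44e-04). WT replicates 2, 3 and 4 stood apart from the other WT libraries. The summed TPM of 13 fibroblast and smooth muscle markers was 4325 to 11010 in them, 118 to 442 in WT replicates 1, 5, 6 and 7, and 204 to 627 in KO. Summed levels of 10 neutrophil markers were 79.3 to 109 in these 3 libraries, 1195 to 1547 in the other WT libraries and 1005 to 6263 in KO. The 12 macrophage markers summed to 7934 to 27101, 25889 to 29883 and 16413 to 16958 TPM in the same order of groups. Lyz2, a macrophage lysozyme gene, fell by 1.55 on the log2 scale in the fit without WT replicates 2, 3 and 4. Without Lyz2 the macrophage sum was 11254 to 13756 TPM in WT replicates 1, 5, 6 and 7 and 11105 to 11645 TPM in KO, which overlap, and 2702 to 5554 TPM in WT replicates 2, 3 and 4. All comparisons of KO with WT were therefore made both with 12 libraries and with the 9 libraries left without WT replicates 2, 3 and 4. In bulk RNA, fewer cells of a type and less RNA per cell cannot be told apart.

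The member genes are compact. Gene length in the annotation had a median of 4698 bases over the 10 members, against 23781 bases over 10783 protein-coding tested genes. Of the members, 7 were shorter than 10000 bases, against 23.7% of the protein-coding tested genes. Exons were counted in the longest transcript of each gene. By that count 9 members had 4 or fewer exons, where the median protein-coding tested gene had 8. The longest transcripts of Jun, Junb and Jund had a single exon, which held for 5.45% of the protein-coding tested genes.

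The promoters of the 5 members that passed the test below, and of Jun, which is set against Junb throughout, are shown so that members moving together can be compared in sequence. Each is the 250 bases before the start of the gene in RefSeq (GRCm38.p6, the build of mm10), written 5′ to 3′ on the strand of the gene. Capitals mark TGACG or its reverse complement, alone or within the full cyclic AMP response element TGACGTCA, except in Zfp36, where they mark a CArG box, the sequence bound by serum response factor, and in Jun, where they mark TGACATCA, a variant AP-1 element.
Atf3, chr1:191183334-191183583, minus strand: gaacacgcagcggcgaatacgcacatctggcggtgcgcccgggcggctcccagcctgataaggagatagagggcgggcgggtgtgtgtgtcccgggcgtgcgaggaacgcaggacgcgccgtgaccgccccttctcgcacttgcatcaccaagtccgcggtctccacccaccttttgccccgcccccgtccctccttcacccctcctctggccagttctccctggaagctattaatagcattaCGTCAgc
Nr4a1, chr15:101266596-101266845, plus strand: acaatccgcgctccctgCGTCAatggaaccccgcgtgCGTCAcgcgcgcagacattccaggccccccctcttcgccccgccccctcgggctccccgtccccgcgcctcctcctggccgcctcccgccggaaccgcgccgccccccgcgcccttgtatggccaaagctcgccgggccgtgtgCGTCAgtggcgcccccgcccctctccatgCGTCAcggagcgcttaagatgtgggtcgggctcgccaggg
Dusp1, chr17:26508473-26508722, minus strand: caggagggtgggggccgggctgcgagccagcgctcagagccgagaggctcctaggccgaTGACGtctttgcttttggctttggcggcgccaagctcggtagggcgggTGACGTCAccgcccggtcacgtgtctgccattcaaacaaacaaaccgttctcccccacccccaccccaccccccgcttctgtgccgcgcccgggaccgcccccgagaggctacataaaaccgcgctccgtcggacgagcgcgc
Zfp36, chr7:28379229-28379478, minus strand: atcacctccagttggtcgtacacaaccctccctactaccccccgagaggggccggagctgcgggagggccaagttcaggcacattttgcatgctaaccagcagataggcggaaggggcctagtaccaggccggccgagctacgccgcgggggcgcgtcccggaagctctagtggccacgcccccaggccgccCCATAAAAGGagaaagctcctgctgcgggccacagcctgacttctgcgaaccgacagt
Junb, chr8:84978749-84978998, minus strand: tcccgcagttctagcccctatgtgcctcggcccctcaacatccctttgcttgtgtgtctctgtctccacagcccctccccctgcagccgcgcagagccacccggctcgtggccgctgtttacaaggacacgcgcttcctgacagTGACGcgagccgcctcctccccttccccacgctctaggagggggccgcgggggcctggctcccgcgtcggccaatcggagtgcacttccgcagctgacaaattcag
Jun, chr4:95052223-95052472, minus strand: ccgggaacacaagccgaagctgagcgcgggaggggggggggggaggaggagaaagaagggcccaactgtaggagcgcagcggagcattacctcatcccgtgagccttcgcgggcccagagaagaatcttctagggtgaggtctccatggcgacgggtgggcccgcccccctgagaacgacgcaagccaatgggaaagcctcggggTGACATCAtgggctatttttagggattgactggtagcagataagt

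RefSeq promoters were matched for 9 of the 10 members (Egr1 was not matched). Both strands were searched, and TGACGTCA contains TGACG on each strand. TGACG occurred in 6 of the 9 member promoters (Atf3, Fosb, Junb, Fos, Nr4a1 and Dusp1) and in 17.8% of all 32851 promoters of that length. Nr4a1 held 4 copies. The full TGACGTCA occurred in Dusp1, 143 to 136 bases before the start, and in 1.55% of all promoters. TGACATCA occurred in Jun, 45 to 38 bases before the start, and in 2.93% of all promoters. The CArG box occurred in Zfp36, 58 to 49 bases before the start, and in 1.47% of all promoters. The canonical AP-1 element TGANTCA was in none of the 9 windows and in 6.75% of all promoters. GCGNGGGCG, an element bound by Egr proteins, was in Fosb, Zfp36 and Nr4a1 and in 4.70% of all promoters. These are matches of letters in a fixed window. GC content was 58.4% (Fos) to 74.4% (Nr4a1) in the member windows other than Jund (47.6%). The median over all promoters was 52.4%. The shares over all promoters were not matched for GC content, and its part in the member counts was not tested. The RefSeq start lay within 30 bases of an annotated GENCODE start for 8 of the 9 genes and 1210 bases from the nearest for Jund. That nearest start could belong to any annotated transcript of the gene. The windows of Atf3, Nr4a1, Dusp1 and Zfp36 lay inside the annotated spans of their genes, so these genes also had annotated starts further upstream. TGACG was thus present in the windows of Atf3, Nr4a1 and Dusp1, which rose in KO, and of Junb, which fell. The window of Zfp36, which also rose, did not hold these letters.

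In WT replicates 1, 5, 6 and 7 the most abundant member was Junb, at 244 ± 13.2 TPM (SD, n = 4). Atf3, Jun and Jund followed at 152 ± 3.73, 150.0 ± 7.27 and 147 ± 6.31 TPM (SD, n = 4), and these 3 did not differ beyond their spread. Dusp1 (91.4 ± 6.28 TPM) and Fos (87.0 ± 11.9 TPM) formed the next pair, also within their spread (SD, n = 4). Zfp36 was at 45.6 ± 5.13 TPM, Egr1 at 14.3 ± 4.25 TPM, Nr4a1 at 4.26 ± 1.02 TPM and Fosb at 2.49 ± 0.723 TPM (SD, n = 4). By mean TPM over the 12 libraries, Junb lay above 93.7% of the tested genes and Fosb above 5.53% of them. In KO the order began with Atf3 at 215 ± 30.4 TPM and Junb at 188 ± 14.4 TPM (SD, n = 5), whose ranges overlapped, followed by Jun at 146 ± 4.21 TPM. Jund (129 ± 12.8 TPM), Dusp1 (127 ± 17.0 TPM) and Fos (124 ± 17.98 TPM) came next and did not differ beyond their spread (SD, n = 5). Zfp36 was at 63.0 ± 5.38 TPM, Egr1 at 11.7 ± 2.71 TPM, Nr4a1 at 6.98 ± 0.881 TPM and Fosb at 2.27 ± 0.189 TPM (SD, n = 5). In WT replicates 2, 3 and 4 the highest means were those of Atf3 at 190.1 ± 28.0 TPM and Dusp1 at 186 ± 20.4 TPM (SD, n = 3), within their spread. Junb followed at 163 ± 5.22 TPM, and its range overlapped with those of both.

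**Figure D1:**
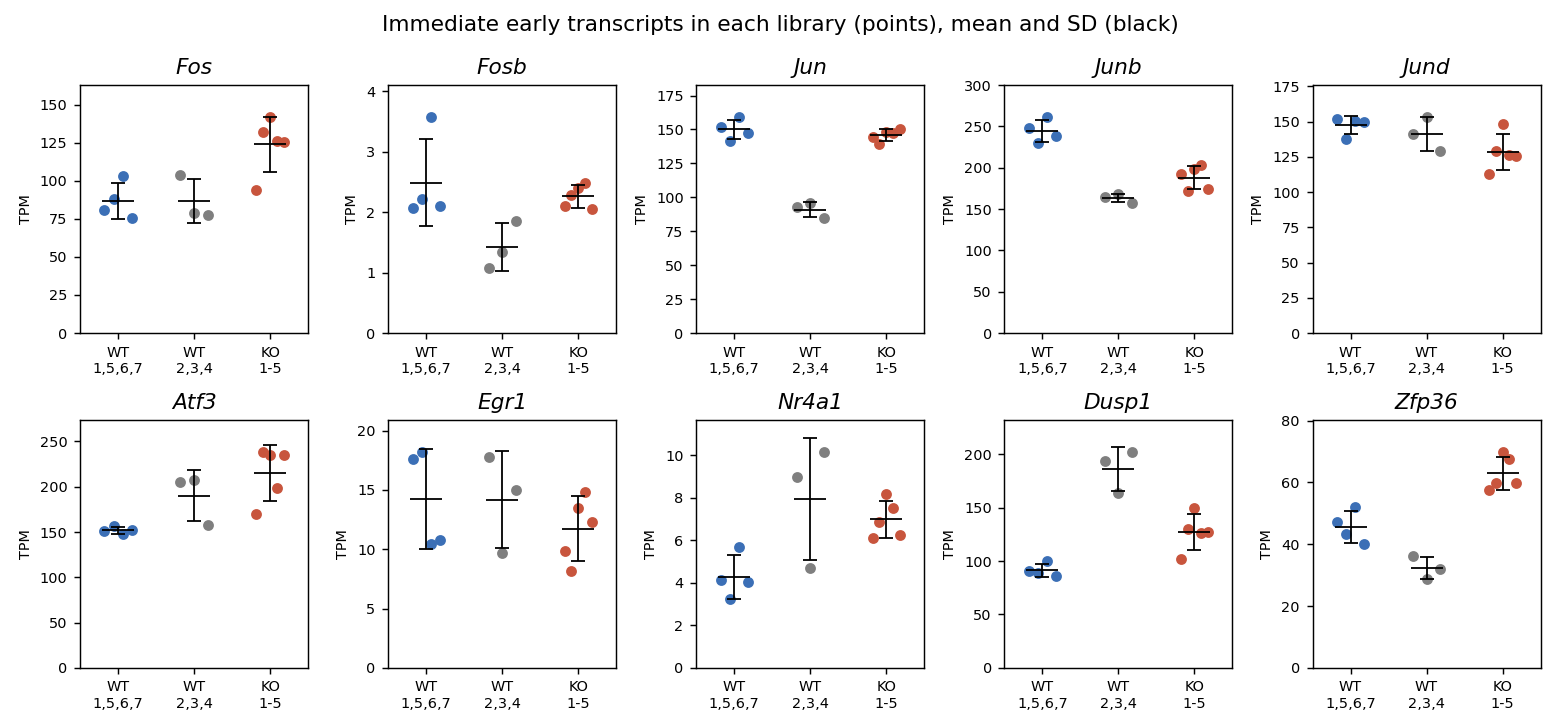
Level of each immediate early transcript in TPM (linear axis from 0, scale differing by panel) in WT replicates 1, 5, 6 and 7 (blue), WT replicates 2, 3 and 4 (grey) and KO replicates 1 to 5 (red). Each point is a library and black bars show mean and SD. KO points of Zfp36 lie above all WT points, and those of Junb lie below the 4 blue points.

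With WT replicates 2, 3 and 4 left out, the members moved in opposite directions in KO. The stress-induced repressor and activator gene Atf3, the orphan nuclear receptor gene Nr4a1, the phosphatase gene Dusp1 and the RNA decay gene Zfp36 rose, by 1.37-fold to 1.53-fold. Junb, the Jun partner that often restrains proliferation, fell to 0.770 of its WT level. The other members of AP-1 proper, Fos, Fosb, Jun and Jund, and the zinc finger factor gene Egr1 did not pass the threshold. Thus 5 of 10 members were called by limma at an adjusted p of 0.05 (4 higher, 1 lower), where 2.33% of all tested genes were called (1.61% higher, 0.717% lower). Of the 10 members, 5 lay above 0 and 5 below, where 67.5% of all tested genes lay above 0. The median log2 difference of the members was 0.21, against 0.05 over all tested genes. That median falls in the gap between Zfp36 (0.46) and Jun (-0.04), and no member lies near it. In that fit 7 members had an unadjusted limma p under 0.05 (the 5 called, Fos and Jund), as had 18.9% of all tested genes. With all 12 libraries 0 of 10 members were called, against 0.126% of all tested genes (0.108% higher, 0.0179% lower). There, 4 members had an unadjusted p under 0.05 (Zfp36, Fos, Atf3 and Jund), as had 17.5% of all tested genes. Limma with sample quality weights called 6 members, beside 759 of all 11152 tested genes.

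Zfp36 was the member whose KO libraries lay above every WT library. It stood at 57.7, 59.7, 69.8, 67.5 and 60.0 TPM in KO replicates 1 to 5. WT replicates 1, 5, 6 and 7 gave 47.2, 43.15, 52.0 and 40.2 TPM, and WT replicates 2, 3 and 4 gave 36.2, 28.8 and 31.9 TPM. All KO values were thus above all WT values, and WT replicates 2, 3 and 4 were the lowest of the 12. KO values above the whole range of the 7 WT libraries occurred in 2.92% of tested genes, and KO values below it, found in 0 members, in 0.637%. In the fits, the log2 fold change was 0.46 ± 0.0828 (SE) with 9 libraries (limma adjusted p of 0.0261) and 0.67 ± 0.134 (SE) with 12 libraries (limma adjusted p of 0.111). With 9 libraries the call was lost without WT replicate 1, 5 or 7 or KO replicate 2, 3 or 4, where limma adjusted p-values were 0.0531 to 0.0757. With 12 libraries it was gained without WT replicate 6 (limma adjusted p of 0.0354). Zfp36 lies on chromosome 7 from 28376784 to 28380253 in mm10 (ENSMUSG00000044786).

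Atf3 encodes a transcription factor of the ATF family that pairs with Jun proteins and is known in macrophages for limiting cytokine transcription. Its levels in KO replicates 1 to 5 were 169, 238, 235, 198 and 235 TPM. WT replicates 1, 5, 6 and 7 lay close together at 152, 156, 147 and 153 TPM, while WT replicates 2, 3 and 4 reached 205, 208 and 158 TPM. The KO libraries were all above the 4 close WT libraries, and overlapped with WT replicates 2 and 3. On the log2 scale, KO minus WT was 0.49 ± 0.0968 (SE, limma adjusted p of 0.0361) with 9 libraries and 0.35 ± 0.118 (SE, limma adjusted p of 0.223) with 12. KO replicate 1 was the lowest KO library and also had the highest summed neutrophil markers (6263 TPM). Without that replicate the limma adjusted p was 0.00483, without WT replicate 6 it was 0.0498, and without any other of the 9 it was 0.0591 to 0.106, so the call was lost. Atf3 spans chromosome 1 from 191170296 to 191218039 (ENSMUSG00000026628).

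Dusp1 was the member for which the choice of WT libraries mattered most. KO replicates 1 to 5 were at 102, 129.9, 149.7, 127 and 127 TPM. WT replicates 1, 5, 6 and 7 were lower, at 90.5, 88.9, 100.4 and 85.9 TPM. WT replicates 2, 3 and 4 were higher than every other library, at 194, 163 and 202 TPM. KO thus lay between both kinds of WT library without overlap with either, although KO replicate 1 came close to WT replicate 6. The log2 fold change was 0.46 ± 0.0955 (SE, limma adjusted p of 0.0409) with 9 libraries and 0.03 ± 0.243 (SE, limma adjusted p of 0.95) with 12. With 9 libraries the limma adjusted p was 0.00975 without KO replicate 1 and 0.0306 without WT replicate 6, but 0.0615 to 0.127 when any other library was left out. Dusp1 lies on chromosome 17 from 26505590 to 26562128 (ENSMUSG00000024190).

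Nr4a1, induced in macrophages by inflammatory stimuli, was expressed at a low level. KO replicates 1 to 5 held 6.08, 6.87, 8.17, 7.53 and 6.23 TPM. WT replicates 1, 5, 6 and 7 held 4.11, 3.24, 5.68 and 4.03 TPM, and WT replicates 2, 3 and 4 held 8.95, 4.68 and 10.1 TPM. KO was above the 4 WT libraries by a margin that was small for WT replicate 6, and 2 of the other 3 WT libraries were above KO. In the fits, the log2 fold change was 0.61 ± 0.131 (SE, limma adjusted p of 0.0451) with 9 libraries and 0.30 ± 0.230 (SE, limma adjusted p of 0.415) with 12, and on this scale the change of a low gene is understated. The limma adjusted p with 9 libraries was 0.0115 without WT replicate 6, 0.0454 without KO replicate 1 and 0.0571 to 0.131 when any other was left out. Nr4a1 lies on chromosome 15 from 101254269 to 101274795 (ENSMUSG00000023034).

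Junb was the member that fell. It stood at 193, 172, 199, 203 and 174 TPM in KO replicates 1 to 5, against 248, 230.2, 261 and 238 TPM in WT replicates 1, 5, 6 and 7. WT replicates 2, 3 and 4 were lower still, at 165, 168 and 158 TPM. All KO libraries were below the 4 WT libraries and above the other 3, with no overlap on either side. On the log2 scale, KO minus WT was -0.38 ± 0.0608 (SE, limma adjusted p of 0.0177) with 9 libraries and -0.13 ± 0.139 (SE, limma adjusted p of 0.545) with 12. The call was lost without WT replicate 1 (limma adjusted p of 0.0653) or WT replicate 7 (0.0554) and held without any other of the 9. Junb lies on chromosome 8 from 84974484 to 84978718 (ENSMUSG00000052837).

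Of all 10 members, 4 had KO values entirely above the 4 WT libraries, as had 7.09% of tested genes, and 1 had KO values entirely below them, as had 2.08%. These were the 5 members called in the same libraries, so the separation is no further evidence. With submission block as a term (submission numbers 1 to 5 against 6 to 12), limma with 9 libraries called Junb (adjusted p of 0.0423) and Zfp36 (0.0475), and gave 0.0517 for Dusp1, 0.0576 for Atf3 and 0.0744 for Nr4a1. No label names these blocks as batches. Scaling each library to the median ratio called 2 members in place of 5, again Junb (limma adjusted p of 0.00876) and Zfp36 (0.033), with Atf3, Dusp1 and Nr4a1 at 0.0558 to 0.0559. Over all tested genes that scaling gave 83 higher and 138 lower calls in place of 180 and 80. The direction of each of the 5 was the same under every alternative run with 9 libraries.

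**Figure D2:**
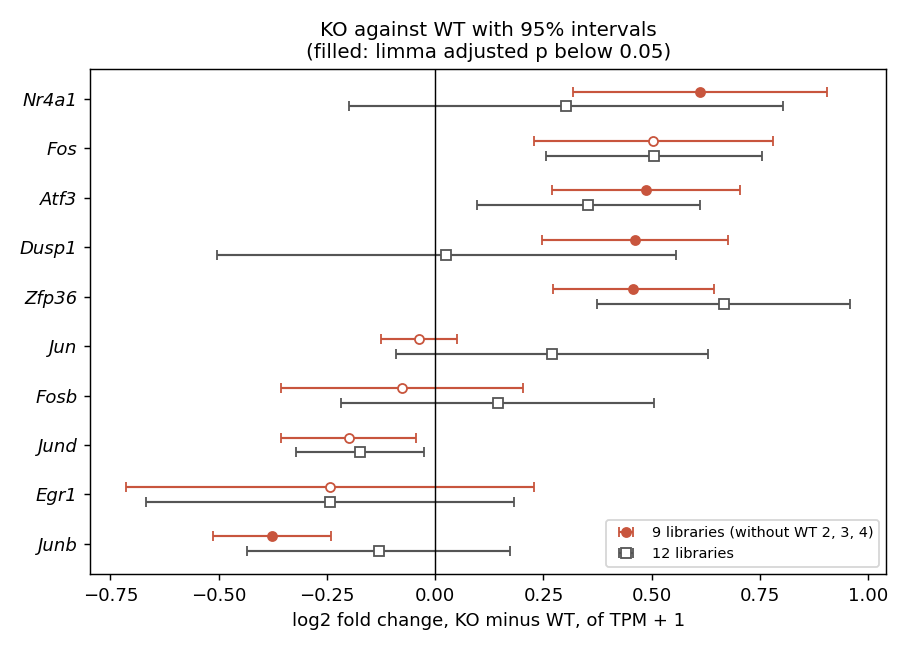
Log2 fold change of TPM + 1, KO minus WT, for each member, with 95% intervals from limma, for 9 libraries (red circles) and 12 libraries (grey squares). Filled symbols mark a limma adjusted p below 0.05, which 5 members reached with 9 libraries and 0 with 12, and the 2 estimates of Dusp1 are 0.46 and 0.03.

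Fos, the founding Fos subunit, did not pass the threshold in either fit. It was at 94.03, 132, 142, 126 and 126 TPM in KO replicates 1 to 5. WT replicates 1, 5, 6 and 7 gave 81.15, 88.3, 103 and 75.4 TPM, while 104, 78.9 and 77.8 TPM were found in replicates 2, 3 and 4. In 4 of 5 KO libraries the level was above all 7 WT libraries, and KO replicate 1 was within the WT range. The log2 fold change was 0.50 ± 0.123 (SE, limma adjusted p of 0.0643) with 9 libraries and 0.51 ± 0.114 (SE, limma adjusted p of 0.14) with 12, so this estimate was nearly the same in both. With 9 libraries the limma adjusted p was 0.0175 without KO replicate 1 and 0.0334 without WT replicate 6, and 0.0991 to 0.182 when any other library was left out. Without KO replicates 1 and 4, which had the highest neutrophil sums (6263 and 4378 TPM), it was 0.0292. Fos lies on chromosome 12 from 85473890 to 85477273 (ENSMUSG00000021250).

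Jun, the strongest transactivator among the Jun proteins, was level between KO and the 4 WT libraries. KO replicates 1 to 5 were at 145, 139, 148, 148 and 150.5 TPM, and WT replicates 1, 5, 6 and 7 at 152, 142, 159 and 147 TPM. WT replicates 2, 3 and 4 were below all others, at 92.5, 95.6 and 84.7 TPM. With 9 libraries the log2 fold change was -0.04, with a 95% interval of -0.13 to 0.05 (limma adjusted p of 0.662). With 12 libraries it was 0.27, with an interval of -0.09 to 0.63 (limma adjusted p of 0.345). Jun lies on chromosome 4 from 95049034 to 95052222 (ENSMUSG00000052684).

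Jund, the Jun gene with the steadiest expression in most cells, was at 113, 129, 149, 127 and 126 TPM in KO replicates 1 to 5, while WT replicates 1, 5, 6 and 7 had 152, 138, 150.2 and 149.8 TPM. WT replicates 2, 3 and 4 gave 142, 153 and 129 TPM. In 4 of 5 KO libraries the level was below those 4 WT libraries, and KO replicate 3 was among them. With 9 libraries the log2 fold change was -0.20, with a 95% interval of -0.36 to -0.05 before adjustment and a limma adjusted p of 0.159. With 12 libraries it was -0.17 (limma adjusted p of 0.253). Jund lies on chromosome 8 from 70698949 to 70700616 (ENSMUSG00000071076).

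Egr1, a zinc finger factor induced by serum and growth factors was at a low level with a wide scatter. KO replicates 1 to 5 held 9.86, 8.20, 13.5, 14.9 and 12.3 TPM, WT replicates 1, 5, 6 and 7 held 17.6, 18.2, 10.4 and 10.7 TPM, and WT replicates 2, 3 and 4 held 17.8, 9.72 and 15.03 TPM. The groups overlapped, with WT libraries both near 18 and near 10 TPM. With 9 libraries the log2 fold change was -0.24, with a 95% interval of -0.71 to 0.23 (limma adjusted p of 0.584). With 12 libraries it was also -0.24 (limma adjusted p of 0.435). Fosb, a further Fos subunit, was between 2.05 and 2.49 TPM in KO, between 2.07 and 3.57 TPM in the 4 WT libraries and between 1.08 and 1.86 TPM in WT replicates 2, 3 and 4 (log2 fold change of -0.08 with 9 libraries, 95% interval of -0.36 to 0.20, limma adjusted p of 0.787). With 12 libraries the Fosb estimate had the opposite sign, at 0.14 (95% interval of -0.22 to 0.51, limma adjusted p of 0.574).

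Among the WT libraries, replicates 2, 3 and 4 differed from the rest in most members, in both directions. Dusp1 and Atf3 were higher in these 3 libraries than in the other 4 with no overlap, and Jun, Junb, Zfp36 and Fosb were lower with no overlap. On the log2 scale the mean differences were 1.02 for Dusp1, 0.31 for Atf3, -0.72 for Jun, -0.58 for Junb, -0.49 for Zfp36 and -0.52 for Fosb. Nr4a1 differed by 0.72 with overlap, through WT replicate 3. Fos, Jund and Egr1 overlapped, with mean differences of -0.01, -0.06 and 0.00. The counts of 2 higher and 4 lower members stand beside 29.9% and 28.3% of all tested genes that were separated in the same way, so separation between these libraries is common and the members' share is near the background. No test was made, since the 3 libraries were set apart after their values were seen. Fibroblast and smooth muscle markers (8 of 9 tested above the other WT libraries with no overlap) and neutrophil markers (8 of 8 tested below) moved with this split, and their part in the members' differences was not tested.

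Both contrasts use WT replicates 1, 5, 6 and 7 as the reference, so they are not independent and are only set side by side. Zfp36 was higher in KO (0.46 on the log2 scale) and lower in WT replicates 2, 3 and 4 (-0.49). Junb was lower in both (-0.38 and -0.58), while Atf3 (0.49 and 0.31), Dusp1 (0.46 and 1.02) and Nr4a1 (0.61 and 0.72) were higher in both means. Jun was near 0 in KO (-0.04) and lower in WT replicates 2, 3 and 4 (-0.72). Fos had the reverse pattern, at 0.50 in KO and -0.01 in WT replicates 2, 3 and 4. In neither contrast did all members lie on the same side of 0.

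**Figure D3:**
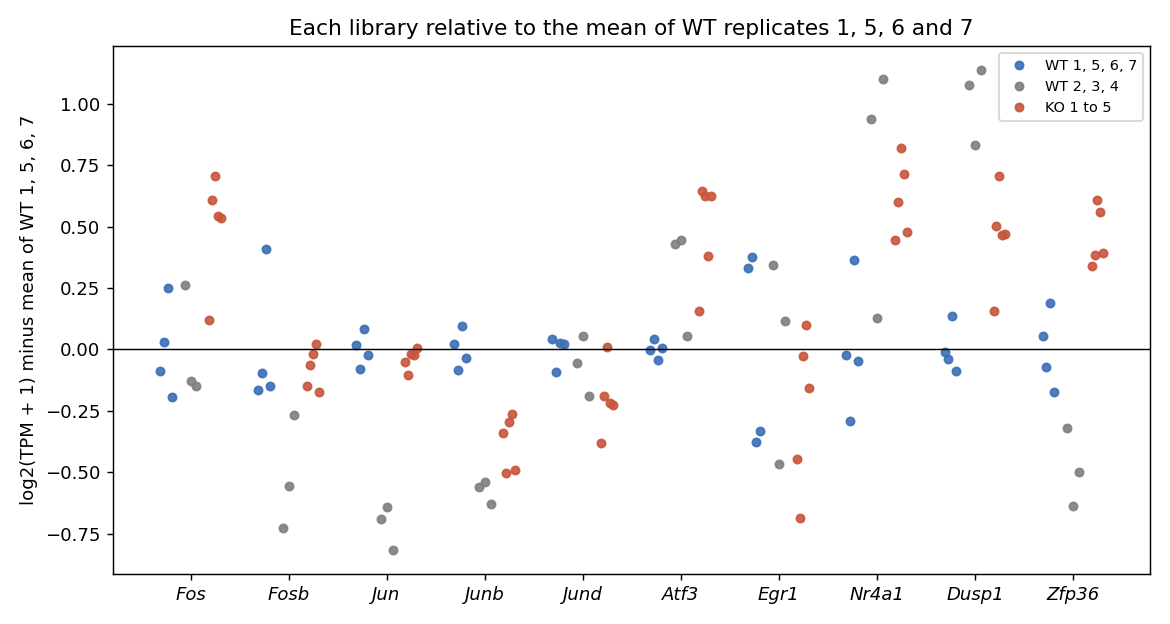
Difference of log2(TPM + 1) in each library from the mean of WT replicates 1, 5, 6 and 7, which serve as the shared reference, for the 10 members; points are libraries (blue, those 4 WT; grey, WT replicates 2, 3 and 4; red, KO). Zfp36 is above 0 in all KO libraries and below 0 in the 3 grey ones, Junb is below 0 in both, and Dusp1 is above 0 in both.

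Ratios of members within a library do not depend on how the library was scaled, and they show the unequal change directly. The pairs were chosen after the values were seen and are given as descriptions. The ratio of Jun to Junb was 0.609 to 0.618 in the 4 WT libraries, a narrow range, 0.538 to 0.570 in WT replicates 2, 3 and 4, and 0.726 to 0.867 in KO. The ratio of Zfp36 to Junb was 0.169 to 0.199 in the 4 WT libraries and 0.172 to 0.219 in WT replicates 2, 3 and 4, so both kinds of WT library overlapped, while KO lay apart at 0.299 to 0.351. The ratio of Dusp1 to Zfp36, the pair of feedback genes, behaved otherwise: it was 1.92 to 2.14 in the 4 WT libraries, 1.77 to 2.18 in KO and 5.36 to 6.35 in WT replicates 2, 3 and 4. Fos to Junb was 0.316 to 0.395 in the 4 WT libraries, 0.471 to 0.629 in WT replicates 2, 3 and 4 and 0.488 to 0.770 in KO.

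**Figure D4:**
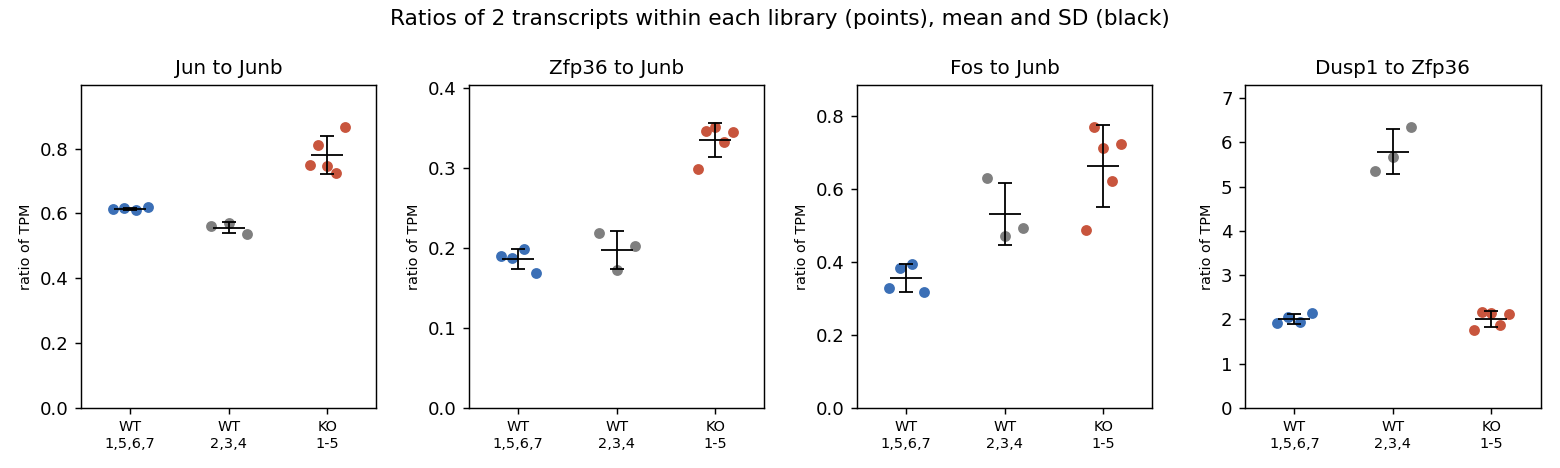
Ratio of TPM of 2 members within each library (linear axes from 0) for 4 pairs; points are libraries, black bars mean and SD. Jun to Junb and Zfp36 to Junb are higher in every KO library (red) than in any WT library (blue and grey), and Dusp1 to Zfp36 is alike in KO and the 4 blue WT libraries but above 5 in the 3 grey ones.

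Seen as families, the Jun genes (Jun, Junb and Jund) summed to 509.9 to 570.1 TPM in the 4 WT libraries and 440.5 to 495 TPM in KO, without overlap. Within that sum Junb took 44.5% to 45.8% in the 4 WT libraries and 38.6% to 42.8% in KO, while Jun took 27.5% to 27.9% and 29.9% to 33.5%. WT replicates 2, 3 and 4 had a lower Jun family sum than KO, at 371 to 416 TPM, and a Junb share of 40.3% to 42.4%, inside the KO range, with Jun at 22.8% to 23.2%. The Fos family sum (Fos, Fosb, Fosl1 and Fosl2) was 108 to 136 TPM in the 4 WT libraries and 124 to 173 TPM in KO. The Jun to Fos family ratio was 4.20 to 4.97 in those WT libraries and 2.73 to 3.64 in KO. In WT replicates 2, 3 and 4 this ratio was 2.498 to 3.56, with Fosl1, an AP-1 subunit prominent in fibroblasts and migrating cells, at 13.2% to 23.9% of the Fos family against 3.43% to 5.58% in the other WT libraries and 2.71% to 4.39% in KO. Transcript shares say nothing on the dimers that form.

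Of the other AP-1 subunits, 7 were tested and 0 were called by limma in either fit. Their median log2 difference was 0.04 with 9 libraries. An unadjusted p under 0.05 was found for 4 of the 7 with 9 libraries and for 3 with 12. Over all tested genes it was found for 18.9% with 9 libraries and 17.5% with 12, which is the background for the lists below as well. The 2 most abundant were Jdp2, a repressing partner of Jun, whose WT level was 34.9 ± 1.52 TPM (SD, n = 4) and KO level 29.6 ± 2.501 TPM (SD, n = 5) (limma adjusted p of 0.0827), and Fosl2, with a WT mean of 24.65 and a KO mean of 23.0 TPM (limma adjusted p of 0.279). Jdp2 in KO (26.8 to 32.6 TPM) lay below all 7 WT libraries (33.5 to 51.4 TPM). It was the 1 gene of these 7 to do so, as did 0.637% of all tested genes. Among 8 small Maf proteins and other leucine zipper partners, 0 were called by limma (2 with an unadjusted p under 0.05 with 9 libraries). The most abundant of these, the stress factor gene Atf4 and the myeloid factor gene Cebpb, gave limma adjusted p-values of 0.502 and 0.0619.

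Of 29 other immediate early genes tested, limma called 1 higher and 2 lower with 9 libraries, beside 1.61% and 0.717% of all tested genes. The list's median log2 difference was -0.06, against 0.05 over all tested genes. Plk2, a polo-like kinase gene, rose by 0.55 in log2 units. Its WT level was 82.6 ± 4.43 TPM (SD, n = 4) and the KO level 122 ± 20.1 TPM (SD, n = 5) (limma adjusted p of 0.0405). Sgk1, a kinase gene induced by serum and glucocorticoids, fell by 0.58, from 205 ± 7.16 to 138 ± 15.5 TPM (SD, n = 4 and n = 5; limma adjusted p of 0.0104). Hes1, a target of Notch signals, fell by 0.46 with 9 libraries, with a WT mean of 5.175 and a KO mean of 3.49 TPM (limma adjusted p of 0.0304). In WT replicates 2, 3 and 4, 15 of the 29 were above the other WT libraries and 9 below with no overlap, where 29.9% and 28.3% of all tested genes were. An unadjusted limma p under 0.05 was found for 15 of the 29 with 9 libraries, beside 18.9% of all tested genes. With 12 libraries, limma called 0 of the 29 (10 with an unadjusted p under 0.05). Egr3, Egr4 and Nr4a3 stayed below 1 TPM in all 12 libraries.

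Calls among genes acting before and after these members are set beside the 2.33% of all tested genes that limma called with 9 libraries. Of 19 MAP kinases and upstream kinases and of 12 serum response, ternary complex and CREB factors, 0 were called by limma with 9 libraries (3 and 1 with an unadjusted p under 0.05), among them Mapk3 (limma adjusted p of 0.447), Map2k1 (0.578), Elk3 (0.319) and Atf1 (0.769). Among 10 other MAP kinase phosphatases 1 was called (3 with an unadjusted p under 0.05). Dusp4, a nuclear phosphatase, fell by 0.28 in log2 units, opposite in direction to Dusp1. Its WT level was 63.4 ± 2.08 TPM (SD, n = 4) and the KO level 51.9 ± 2.95 TPM (SD, n = 5) (limma adjusted p of 0.0193). Dusp4 was at 58.2, 50.5 and 46.0 TPM in WT replicates 2, 3 and 4, on both sides of the KO range, and with 12 libraries the limma adjusted p was 0.328. Of 10 genes of the tristetraprolin family and RNA decay, 0 were called by limma with 9 libraries (2 with an unadjusted p under 0.05). The most abundant were Hnrnpd (limma adjusted p of 0.355) and the Zfp36 relative Zfp36l2, whose WT level was 158 ± 12.98 TPM (SD, n = 4) and KO level 139 ± 11.5 TPM (SD, n = 5; limma adjusted p of 0.204).

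Of 17 tested genes often listed as AP-1 targets, 2 rose and 0 fell with 9 libraries, beside 1.61% and 0.717% of all tested genes. An unadjusted limma p under 0.05 was found for 5 of the 17 with 9 libraries, beside 18.9% of all tested genes. With 12 libraries limma called 0 of the 17 (5 with an unadjusted p under 0.05). The chemokine gene Ccl2 was at 858 to 1445 TPM in KO, 523 to 665 TPM in the 4 WT libraries and 573 to 786 TPM in WT replicates 2, 3 and 4 (0.91 higher in log2 units with 9 libraries; limma adjusted p of 0.028, and 0.0926 with 12). The adhesion receptor gene Cd44 was at 168 to 186 TPM in KO and 142 to 161 TPM in the 4 WT libraries (0.25 higher in log2 units; limma adjusted p of 0.0246, and 0.208 with 12 libraries). Of 9 tested messages known to be bound by tristetraprolin, Ccl2 again was the gene called with 9 libraries, beside 1.61% of all tested genes called higher. In that fit 5 of the 9 had an unadjusted limma p under 0.05. Tnf, the classical target, had a WT level of 39.7 ± 5.595 TPM (SD, n = 4) and the KO level 33.3 ± 3.57 TPM (SD, n = 5) (limma adjusted p of 0.24). Of 13 heat shock and handling genes chosen, Hspa1a and Hspa1b were not found among the listed genes. Limma called 1 of the 11 tested higher with 9 libraries, beside 1.61% of all tested genes. In that fit 10 of the 11 lay above 0, as did 67.5% of all tested genes. An unadjusted p under 0.05 was found for 3 of the 11. The gene called was the chaperone gene Hsp90aa1, which rose by 0.32 in log2 units (limma adjusted p of 0.0285). Its WT level was 333 ± 30.4 TPM (SD, n = 4) and its KO level 415 ± 19.4 TPM (SD, n = 5). Hsp90aa1 was at 503 to 635 TPM in WT replicates 2, 3 and 4, where 8 of the 11 and 29.9% of all tested genes were above the other WT libraries with no overlap. With 12 libraries its log2 difference was -0.02 (limma adjusted p of 0.948). Immediate early transcripts can also respond to the handling of cells. These values stand beside the rise of 4 members, and the part of handling was not tested.

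The markers that moved with KO are given for the whole lists. With 9 libraries, 67.5% of all tested genes were higher in mean in KO. Neutrophil markers were higher in mean for 8 of 8 tested genes, with 0 called by limma (0 with an unadjusted p under 0.05). KO replicates 1 and 4 had the highest sums and KO replicate 5 the lowest of the KO libraries, at 1005 TPM. Without KO replicates 1 and 4, limma called 4 members (Junb, Atf3, Dusp1 and Fos), and Zfp36 and Nr4a1 had adjusted p-values of 0.0542 and 0.0888. Fibroblast and smooth muscle markers were also higher in mean for 9 of 9 tested genes with 9 libraries, with a median log2 difference of 0.26. Limma called 0 of the 9 (0 with an unadjusted p under 0.05), and the KO range of their sum overlapped with that of the 4 WT libraries. Of 12 macrophage markers 1 rose (Cd14) and 2 fell (Lyz2 and C1qc) with 9 libraries, where 1.61% of all tested genes rose and 0.717% fell. An unadjusted limma p under 0.05 was found for 5 of the 12, beside 18.9% of all tested genes. Of 4 tested monocyte markers 1 fell (F13a1). The other 3 monocyte markers were higher in mean in KO and were not called, among them Ccr2 (16.3 to 63.1 TPM in KO, 13.6 to 35.8 TPM in the 4 WT libraries, limma adjusted p of 0.57) and Ly6c2 (24.65 to 108 and 20.4 to 59.4 TPM, limma adjusted p of 0.574). Both were highest in KO replicates 1 and 4. The markers of dendritic cells summed to at most 2.41 TPM, those of T and NK cells to at most 5.22 and those of B cells to at most 6.84 TPM in any library.

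Finally, the genes most like each member in pattern were found by the root mean square difference of centred log2(TPM + 1) over the 12 libraries, as a description. Those nearest to Zfp36 were Antxr2 (0.125), Osbpl8 (0.130) and Trim25 (0.136), where Zfp36 itself had a spread of 0.396 around its mean. Nearest to Junb were Hk2 (0.101), Btbd19 (0.107) and Gsap (0.108), nearest to Jun were Dr1 (0.0493), Agpat5 (0.0503) and Arpc2 (0.0507), and nearest to Fos were Wwp1 (0.151), Kcnj2 (0.160) and Cd36 (0.162). Those nearest to Atf3 were Atp6v1b2 (0.0877), Pdxk (0.105) and Hk3 (0.119). For Dusp1 they were Serpinb9 (0.109), Gbp7 (0.133) and Dhx40 (0.147), and for Nr4a1 they were Cers6 (0.204), Fnbp1l (0.204) and Limk2 (0.213). Among the 3 genes nearest to each of the 10 members, 0 were members. Members are few among the genes ranked, so this count does not show whether members move together. The best ranks of a member were 24, for Dusp1 near Nr4a1, and 33, for Atf3 near Fos. For every other member the nearest member ranked lower, from 195 (Fos near Atf3) to 4035 (Junb near Jund). The part of the split among the WT libraries in these ranks was not tested.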

How the data were processed

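The authors deposited 1 table of TPM values for 23438 Ensembl genes in 12 libraries. Total RNA was made into NEBNext Ultra libraries and sequenced in read pairs, per the labels' protocols, and bcl2fastq, Salmon 1.2.0 and mm10 were used, per the submitters' processing notes. The annotation and the summing of transcripts to genes were not given in the sources used here. TPM keeps no depth, so no counting interval was computed, and it is a share, so a rise of abundant transcripts lowers all others. Reads shared by similar genes were divided by a model.

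Symbols and coordinates came from GENCODE M21 (23423 IDs matched). limma-trend (limma 3.58.1, R 4.3.3) was fitted to log2(TPM + 1), pseudocount 1, for the 11152 genes that reached 1 TPM in 5 or more libraries, with genotype as the only term. P-values were adjusted over all 11152 by the Benjamini-Hochberg method, threshold 0.05. Fold changes are on that scale and understate changes of low genes. Fits were also run on simulated data with independent noise for each gene. Those data held no shift shared by the genes of a library and no split of the WT libraries. They therefore cannot give the error rate in these libraries.

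Groups came from the labels. The members, the gene lists and the 9-library comparison were chosen with earlier results of these data known. Named genes are the members, Smarcd1, up to 3 called genes per list and direction (or the 2 most abundant as values where none was called) and the 3 nearest genes of a member. Lyz2, C1qc, F13a1, Cd14, Ccr2, Ly6c2, Fosl1 and Tnf were named after their values were seen. Alternatives were other scalings, filters, pseudocounts, weights, thresholds, blocks and left-out libraries. No count model was fitted to TPM.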

Additional observations from a re-analysis of the deposited data

Results flagged for a closer look

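Each member was examined in the 7 WT libraries, in WT without replicates 2, 3 and 4, and in the 5 KO libraries, which makes 30 groups, for a library that lies far from its nearest neighbour relative to the range of its group. Chance alone gives such a library in about 5% of groups. It was found in 2 of the 30. Fosb in WT replicate 6 was at 3.57 TPM, with the nearest of the other 3 libraries at 2.22 TPM, a gap of 0.880 of the range, against a critical value of 0.829. Jund in WT replicate 5 was at 138 TPM, with the nearest of the other 3 at 149.8 TPM, a gap of 0.876 of the range. Fosb was the least abundant member. WT replicate 6 also had the lowest summed fibroblast and smooth muscle markers of the 12 libraries, at 118 TPM, and the part of this in the Fosb value was not tested.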

How the results depend on the processing

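With 12 libraries, the genes called by limma numbered 14, and 759 with quality weights, 4 with median-ratio scaling, 3 with the submission block as a term, 3 at a threshold of 0.01, and 2 to 36 when a library was left out. Members called there numbered 0, and 6 with quality weights and 0 to 1 when a library was left out (1 without WT replicate 6). With 9 libraries, 260 genes were called, and 758 with quality weights, 132 with the submission block, 30 at 0.01 and 51 to 462 when a library was left out. The 5 members called there became 2 without a filter, 2 with median-ratio scaling, 2 with the submission block, 3 without the trend, 0 at 0.01 and 0 to 6 when a library was left out (0 without WT replicate 1 or 7). Replicate numbers 1 to 5 occur in both genotypes. Deviations of same-numbered libraries had correlations of 0.222, 0.204, 0.135, -0.224 and -0.181. WT deviations were taken from the mean of all 7 WT libraries, with replicates 2, 3 and 4 among them. No correlations between different numbers were computed, so these values cannot show whether the numbers pair libraries. With the replicate block, 0 genes and 0 members were called in the 10 libraries of the first comparison, against 13 genes in the same libraries without the block term. In the second only 4 libraries have shared numbers, and 0 genes and 0 members were called with the replicate block and 0 and 0 without it. The comparison of the same libraries without the block term, and the fit without KO replicates 1 and 4, were chosen after seeing the data. Signs changed for 3 members that were not called: Dusp1 with 12 libraries (-0.021 with median-ratio scaling, -0.14 with the replicate block and -0.14 in its libraries without it, and -0.061 to 0.143 over the left-out libraries, below 0 without WT replicate 1, 5, 6 or 7 or KO replicate 3), Jun (-0.00043 with quality weights and 12 libraries; 0.0085 with the replicate block and 0.0085 without its term, 9 libraries) and Fosb with 9 libraries (0.031 with quality weights, -0.132 to 0.060 over the left-out libraries, above 0 without WT replicate 6). These changes are within a comparison. Between the main fits, Jun and Fosb also differed in sign (-0.04 and -0.08 with 9 libraries, 0.27 and 0.14 with 12). The cause of these changes was not tested. Lost calls were also counted over 19 alternatives with 9 libraries at the threshold of 0.05, including those chosen after seeing the data. They numbered 4 for Junb, 9 for Zfp36, 12 for Atf3, 13 for Dusp1 and 14 for Nr4a1. The threshold of 0.01, where all 5 calls were lost, is not among the 19.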
